A study of Mus musculus with 8 samples.

Results

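The genes described here encode the known substrates of the ubiquitin ligase RNF146 other than Axin. They are the angiomotins *Amot*, *Amotl1* and *Amotl2*, together with *Sh3bp2*, *Blzf1*, *Casc3*, *Terf1* and *Stk11*. They were chosen by name for what is known of their proteins, and all 8 of the 8 named symbols were among the 15039 genes with values. RNA sequencing covered the prefrontal cortex (PFC) of 4 mice given AAV2/1-hsyn-RNF146-eGFP and 4 mice given AAV2/1-hsyn-eGFP, injected bilaterally. All were wild-type C57BL/6NCrljOri males, 6 weeks old in the methods of the study, and the tissue was dissected 4 weeks after injection. The viral vector uses the synapsin promoter (hsyn), which is active in neurons, and both groups expressed eGFP, so by design the vectors differed in the added *Rnf146*. According to the paper, sequencing used mice already found to have *Rnf146* overexpression and social deficits. The tissue was sequenced whole, with cells that the promoter does not reach, and the share of neurons that carried the virus is not given in the sources used here.

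RNF146 is a RING-type ligase that recognizes proteins carrying poly(ADP-ribose) chains. Tankyrases attach these chains to their targets, RNF146 binds the chains and ubiquitylates the target, and most such targets are then degraded by the proteasome. Axin is the best known of them, and the angiomotins, adaptors that hold the coactivator YAP outside the nucleus, are others. This control acts on proteins. The values here are mRNA levels, so they show whether the transcripts of the substrates moved and hold no measurement of the proteins themselves.

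Tankyrases recognize a short stretch of their targets, and the codons of that stretch are shown for the 6 of the 8 substrates in which a form of it was found. A strict form was searched in the canonical coding sequences of GENCODE vM39 on GRCm39: arginine, any 2 residues, then alanine, cysteine, glycine or proline, then aspartate or glutamate, then glycine, and no proline after it. It was found in 4.63% of 21555 coding genes. A wide form, which also allows valine at the fourth place and isoleucine, proline, glutamine or valine at the fifth, was found in 14.2%. The wide form was drawn up with the sites of Axin and of the angiomotins in mind, so a match in the angiomotins is a description of the family. The strict form was in *Sh3bp2*, *Blzf1* and *Casc3*, and the wide form in *Amot*, *Amotl1* and *Amotl2*. *Casc3* held a wide match as well, at residues 280 to 285. Neither form was found in *Terf1* or *Stk11*, which says only that these letters are not in the mouse coding sequences searched. Binding of the mouse proteins by tankyrases was not tested.

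The sequences below are the coding strand with the 6 codons of the match in capitals. The match lies in exon 1 of *Amot* (chrX:144270387-144270404, minus strand, residues 78 to 83), exon 3 of *Amotl1* (chr9:14504721-14504738, minus strand, residues 157 to 162) and exon 2 of *Amotl2* (chr9:102597552-102597569, plus strand, residues 71 to 76). It lies in exon 9 of *Sh3bp2* (chr5:34717689-34717706, plus strand, residues 469 to 474), exon 3 of *Blzf1* (chr1:164130249-164130266, minus strand, residues 22 to 27) and exon 4 of *Casc3* (chr11:98712389-98712406, plus strand, residues 143 to 148).
Amot: cctgctCGCCAAGAGCCCCAGGGTcaggaa
Amotl1: tcggccCGCCAAGAACCGCAGGGTcaagag
Amotl2: gccaccAGGCAGGAGCCCCAGGGCcaggag
Sh3bp2: ctccagCGATCCCCCCCTGATGGAcagagt
Blzf1: ccaatcCGAGGAGCAGGAGATGGAatggaa
Casc3: ggggagAGGCAGAGCGGCGATGGGcaggag
Of the 18 capital bases, *Amot* shared 16 with *Amotl1* and 14 with *Amotl2*, and *Amotl1* shared 12 with *Amotl2*.

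The deposited values are on a log2 scale and run from 7.86 to 18.8. They had been centred by replicate number: for any gene, the sum of the eGFP and Rnf146 values is identical for numbers 1 to 4, which are called pairs here. Each gene thus holds 4 independent differences, Rnf146 value minus eGFP value, and its 2 groups do not overlap when all 4 differences have one sign. A difference of 1 would be a doubling on a plain log2 scale. The values look variance-stabilized, although no source used here states it, and on such a scale the changes of weakly expressed genes would come out smaller. The values are not per transcript length, so levels were not compared between genes. The test was limma, blocked on the replicate number, with Benjamini-Hochberg adjustment across all genes, and a gene counted as called when its adjusted p did not exceed 0.1. A fit without the block takes every library as independent where the centring leaves only 4 differences, so its p-values come out too small. The values hold no reads, so depth is unknown. Nothing states that a shared number marks a cage or a day. The p-values and intervals of the blocked fit rest on the 4 differences between these mice. They also rest on the other genes, because limma draws the variance of each gene toward that of genes of similar level. The fit had 3 residual degrees of freedom and a median total of 8.4 per gene. For a gene with a wide SD, the interval is narrower than its 4 differences alone would give.

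*Rnf146* itself was far higher in the Rnf146 libraries, by a mean of 2.64 (SD 0.13, n = 4 pairs) at an adjusted p = 3.2e-07 from limma. Some marker lists of other tissue and cells were away from 0 on average as well. The lists of striatal neurons, of oligodendrocytes and of septum and basal forebrain averaged differences of 0.53 (SD 0.59), 0.45 (SD 0.44) and 0.56 (SD 0.18, n = 4 pairs each). Of their genes, 0 of 10, 0 of 10 and 4 of 4 were called. In pair 1 the striatal and oligodendrocyte lists were below 0, at -0.11 and -0.14. Of all genes, 1.25% were called. At an unadjusted p under 0.05, limma gave 8 striatal and 10 oligodendrocyte genes, beside 12.4% of all genes. The genes of each of these lists moved together over the pairs, so they are not independent counts. The 4 septal genes are *Zic* genes, and the other 4 of the 8 listed, cholinergic genes among them, were not in the table. The cortical excitatory list, whose genes mark the labelled tissue, averaged -0.20 with 2 of 10 genes called, and the microglia list -0.16 with 1 of 10. At an unadjusted p under 0.05, limma gave 7 cortical and 5 microglia genes of 10 each, beside the same 12.4%. These too are not independent counts.

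None of the 8 substrate genes was called. Their mean differences ran from -0.07 for *Casc3* to 0.22 for *Amotl1*, 4 were above 0 and 4 below, and the median was 0.0050 beside 0.00086 over all genes. The share called among all genes was 1.25%. An unadjusted p under 0.05 was found for 12.4% of all genes and for 1 of the 8, *Amotl1*. In 3 of the 8 genes, *Amotl1*, *Blzf1* and *Casc3*, the groups did not overlap, beside 20.6% of all genes. Taken for 8 independent libraries, which the centring does not allow, limma without the block called 21.5% of all genes and 2 of the 8, *Amotl1* and *Casc3*. In tissue sequenced whole, fewer cells of a type and less RNA per cell cannot be told apart.

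**Figure D1:**
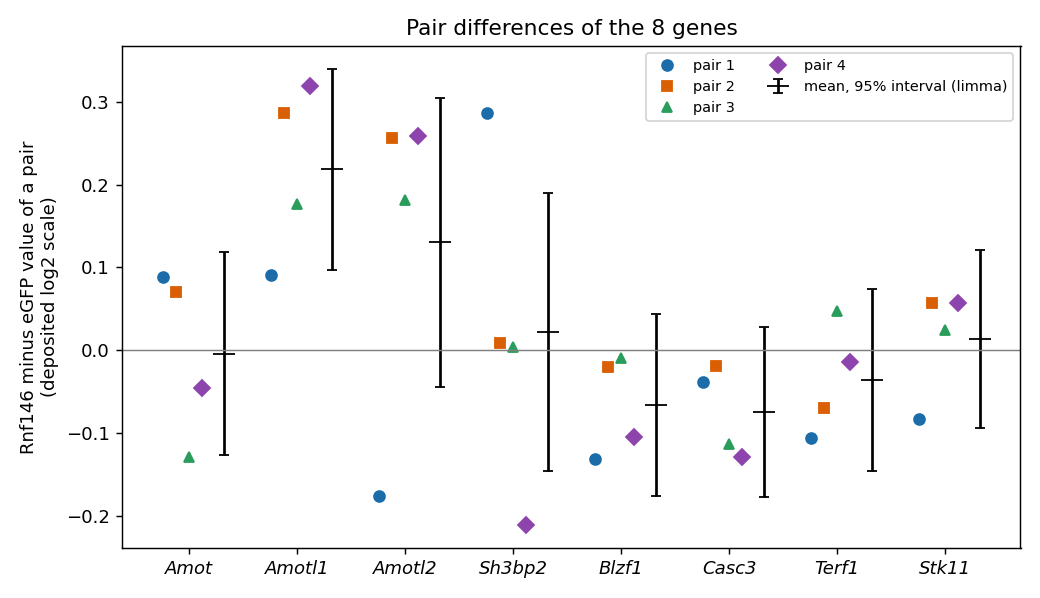
Differences of the 8 substrate genes (y axis, Rnf146 value minus eGFP value, deposited log2 scale) in the 4 pairs of libraries (coloured symbols), with the mean and its 95% interval from limma (black). The interval lies wholly above 0 for *Amotl1*, from 0.10 to 0.34, and spans 0 for the other 7 genes.

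*Amotl1* (chromosome 9 of GRCm39, 14453262 to 14556352, minus strand), an angiomotin of cell junctions, showed the largest difference of the 8. Its value was 10.45, 10.35, 10.41 and 10.34 in eGFP libraries 1 to 4 and 10.54, 10.64, 10.58 and 10.66 in Rnf146 libraries 1 to 4. Every Rnf146 library was above every eGFP library. The differences were 0.09, 0.29, 0.18 and 0.32 and averaged 0.22 (SD 0.10, n = 4 pairs, 95% interval 0.10 to 0.34). The unadjusted p from limma was 0.0031 and the adjusted p 0.142, so the gene stayed short of the threshold. A larger absolute difference was found for 3.88% of all genes. The smallest pair difference was that of pair 1. Without pair 1 the mean was 0.26 with an adjusted p of 0.071 from limma, where 2.8% of all genes were called. With pair 2, 3 or 4 left out, limma gave adjusted p-values of 0.463, 0.223 and 0.458. Without the block, where p-values come out too small, the adjusted p from limma was 0.0071. The 3 genes that overlap it in the annotation had no values in the table.

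*Amotl2* (chromosome 9, 102593836 to 102610617, plus strand), the third angiomotin, split by pair. Its value was 9.65, 9.43, 9.47 and 9.43 in the eGFP libraries and 9.47, 9.69, 9.65 and 9.69 in the Rnf146 libraries. The order of the groups turned round in pair 1, with differences of -0.18, 0.26, 0.18 and 0.26. The mean of 0.13 (SD 0.21, n = 4 pairs, 95% interval -0.04 to 0.30) was smaller than the spread between pairs, with an adjusted p of 0.528 from limma. Without pair 1, the only pair against the others, the mean was 0.23 with an adjusted p of 0.099 from limma, just past the threshold. With pair 2, 3 or 4 left out instead, limma gave adjusted p-values of 0.847, 0.70 and 0.815. The SD of *Amotl2* was the widest of the 8 genes, beside a median SD of 0.098 over all genes.

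*Amot* (chromosome X, 144229421 to 144288177, minus strand), after which the family is named, showed no common direction. Its value was 9.99, 9.995, 10.10 and 10.05 in the eGFP libraries and 10.08, 10.07, 9.97 and 10.01 in the Rnf146 libraries. The groups overlapped, with differences of 0.09, 0.07, -0.13 and -0.05. The mean was -0.0039 (SD 0.10, n = 4 pairs, 95% interval -0.13 to 0.12), with an adjusted p of 0.987 from limma.

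The members of the family were compared with each other within pairs. The difference of *Amotl1* exceeded that of *Amot* by 0.22 (SD 0.16, n = 4 pairs) and did so in all 4 pairs, although by only 0.0022 in pair 1. Flipping the signs of the pairs exactly gave p = 0.125 (two-sided), which is as low as 4 pairs can go, and 0.375 after adjustment over the 3 comparisons in the family. *Amotl2* exceeded *Amot* by 0.13 (SD 0.27) and *Amotl1* exceeded *Amotl2* by 0.09 (SD 0.12), with exact two-sided p-values of 0.375 and 0.25. With 4 pairs, the angiomotins could not be separated by this test.

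**Figure D2:**
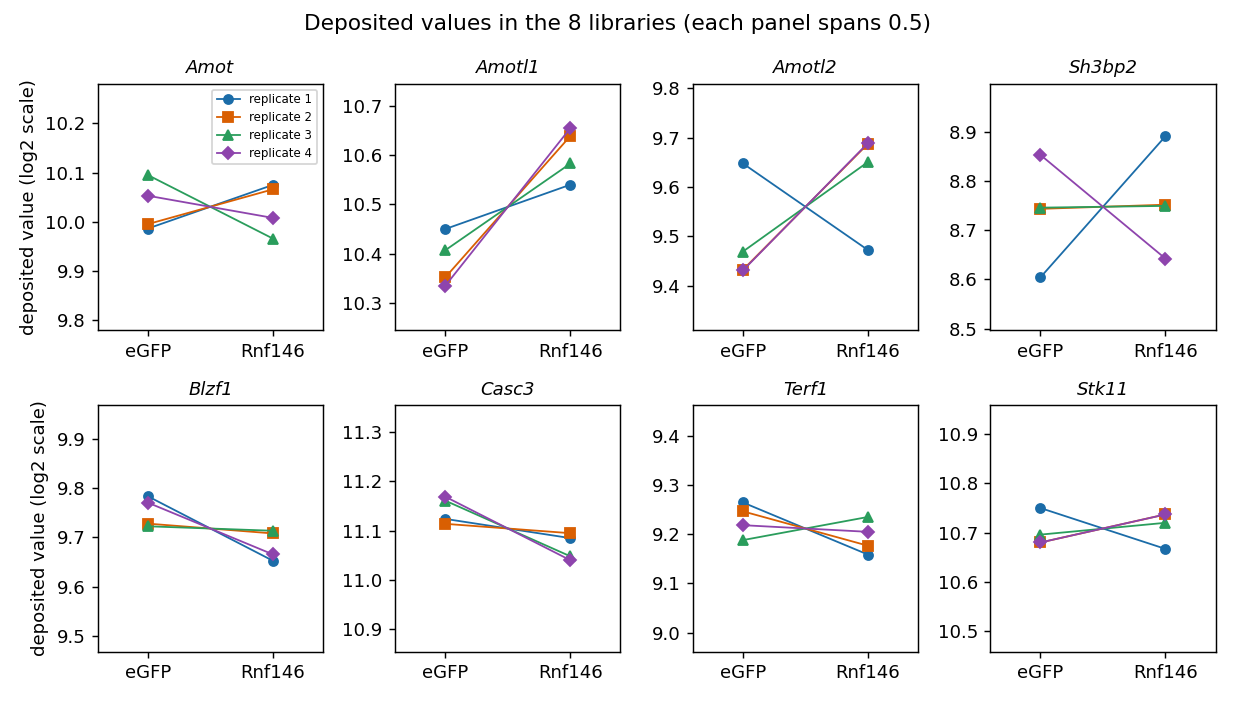
Deposited values (y axis, log2 scale, each panel 0.5 high) of the 8 substrate genes in the eGFP and the Rnf146 library of each replicate number, joined by a line. All 4 lines rise in *Amotl1*, 3 of the 4 rise in *Amotl2*, and the lines cross at one point because the values were centred within pairs.

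The striatal and oligodendrocyte lists were lowest in pair 1, as *Amotl1* and *Amotl2* were, and the other marker lists were not. The striatal list differed by -0.11, 1.27, 0.70 and 0.27 in pairs 1 to 4. The oligodendrocyte list differed by -0.14, 0.46, 0.93 and 0.54 in pairs 1 to 4, negative in pair 1 alone, as *Amotl2* was. The 10 genes of the list averaged 11.73 to 12.27 in the eGFP libraries and 12.13 to 12.66 in the Rnf146 libraries, and the striatal list 10.12 to 10.81 and 10.70 to 11.39. The endothelial list, a cell type in which angiomotins are known, ran from -0.07 to 0.11 and averaged 0.0062. With the oligodendrocyte list as a covariate, chosen after these values were seen, the difference of *Amotl1* was 0.17 (adjusted p = 0.421 from limma) and that of *Amotl2* turned to -0.04. That fit called 262 genes, beside 188 without a covariate. Because the oligodendrocyte list ran like *Amotl2* over the pairs, a smaller difference under this covariate was partly built in by the choice. No conclusion is drawn from it. With the striatal and septal lists as the covariate, *Amotl1* was at 0.14 (adjusted p = 0.918 from limma) and *Amotl2* at -0.05. Only 3 of all genes were called in this last fit, so its adjusted p says little about *Amotl1* in particular. The part of these cell types in the result was not tested.

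**Figure D3:**
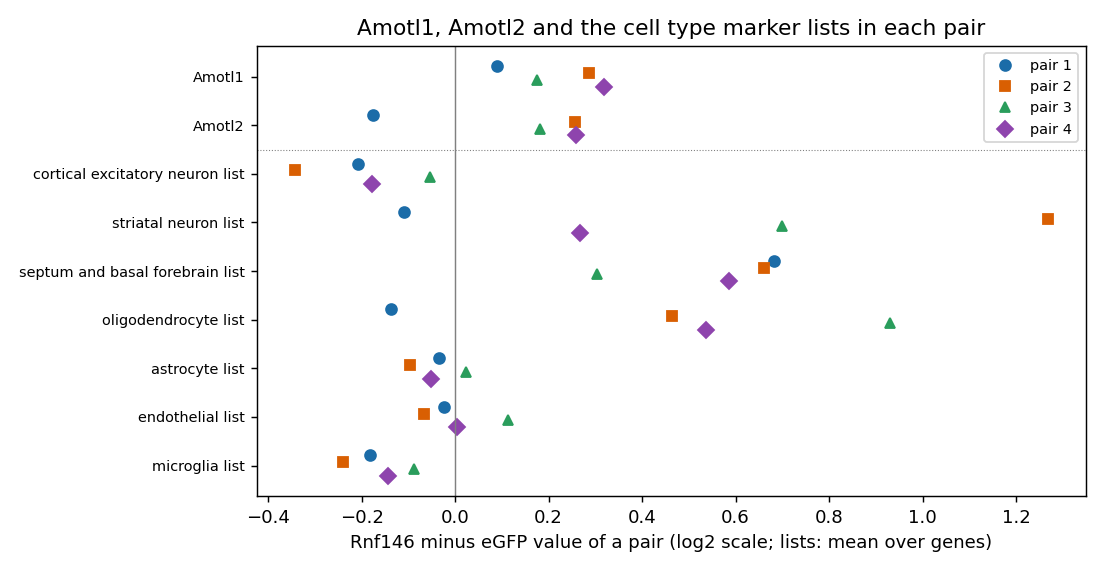
Differences between the Rnf146 and eGFP library of each pair (x axis, log2 scale) for *Amotl1*, *Amotl2* and the mean of each cell type marker list. Pair 1 is the lowest pair for *Amotl1*, *Amotl2*, the striatal list and the oligodendrocyte list, while the endothelial list stays between -0.07 and 0.11.

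*Sh3bp2* (chromosome 5, 34683182 to 34720985, plus strand) encodes a signaling adaptor whose tankyrase-binding stretch is the site of mutations in cherubism, a bone disease of the jaw. Its value was 8.60, 8.74, 8.75 and 8.85 in the eGFP libraries and 8.89, 8.75, 8.75 and 8.64 in the Rnf146 libraries. The Rnf146 library was higher by 0.29 in pair 1, the difference of pair 4 was -0.21, and pairs 2 and 3 differed by 0.0084 and 0.0037. The mean of 0.02 (SD 0.20, n = 4 pairs, 95% interval -0.15 to 0.19) had an adjusted p of 0.940 from limma.

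*Blzf1* (chromosome 1, 164117368 to 164135072, minus strand) encodes golgin-45, a protein of the Golgi apparatus. Its value was 9.78, 9.73, 9.72 and 9.77 in the eGFP libraries and 9.65, 9.71, 9.71 and 9.67 in the Rnf146 libraries. The groups did not overlap, although pairs 2 and 3 were almost level, with differences of -0.13, -0.02, -0.0091 and -0.11. The mean was -0.07 (SD 0.06, n = 4 pairs, 95% interval -0.18 to 0.04) with an adjusted p of 0.630 from limma. *Nme7*, which overlaps it on the opposite strand, differed by -0.06, lower in 3 of 4 pairs.

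*Casc3* (chromosome 11, 98695731 to 98724640, plus strand) encodes a component of the exon junction complex, which marks spliced mRNA. Its value was 11.12, 11.11, 11.16 and 11.17 in the eGFP libraries and 11.09, 11.10, 11.05 and 11.04 in the Rnf146 libraries. The groups did not overlap, and the differences of -0.04, -0.02, -0.11 and -0.13 were small. The mean was -0.07 (SD 0.05, the smallest of the 8 genes, n = 4 pairs, 95% interval -0.18 to 0.03), with an adjusted p of 0.539 from limma. Without the block, where p-values come out too small, limma gave an adjusted p of 0.068. The overlapping gene *Msl1* differed by -0.0073.

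*Terf1* (chromosome 1, 15875840 to 15914280, plus strand) encodes TRF1, the telomere protein through which tankyrase was first found. Its value was 9.26, 9.25, 9.19 and 9.22 in the eGFP libraries and 9.16, 9.18, 9.24 and 9.20 in the Rnf146 libraries. It was lower in 3 pairs and higher in pair 3, with differences of -0.11, -0.07, 0.05 and -0.01. The mean was -0.04 (SD 0.07, n = 4 pairs, 95% interval -0.15 to 0.07) with an adjusted p of 0.822 from limma.

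*Stk11* (chromosome 10, 79951597 to 79966520, plus strand) encodes LKB1, the kinase that activates AMPK and its relatives. Its value was 10.75, 10.68, 10.70 and 10.68 in the eGFP libraries and 10.67, 10.74, 10.72 and 10.74 in the Rnf146 libraries. As in *Amotl2*, pair 1 alone was negative, with differences of -0.08, 0.06, 0.02 and 0.06. The mean was 0.01 (SD 0.07, n = 4 pairs, 95% interval -0.09 to 0.12), with an adjusted p of 0.941 from limma, and it was at -0.04 with the oligodendrocyte list as covariate. *Cbarp*, which overlaps *Stk11* on the opposite strand, differed by 0.05.

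**Figure D4:**
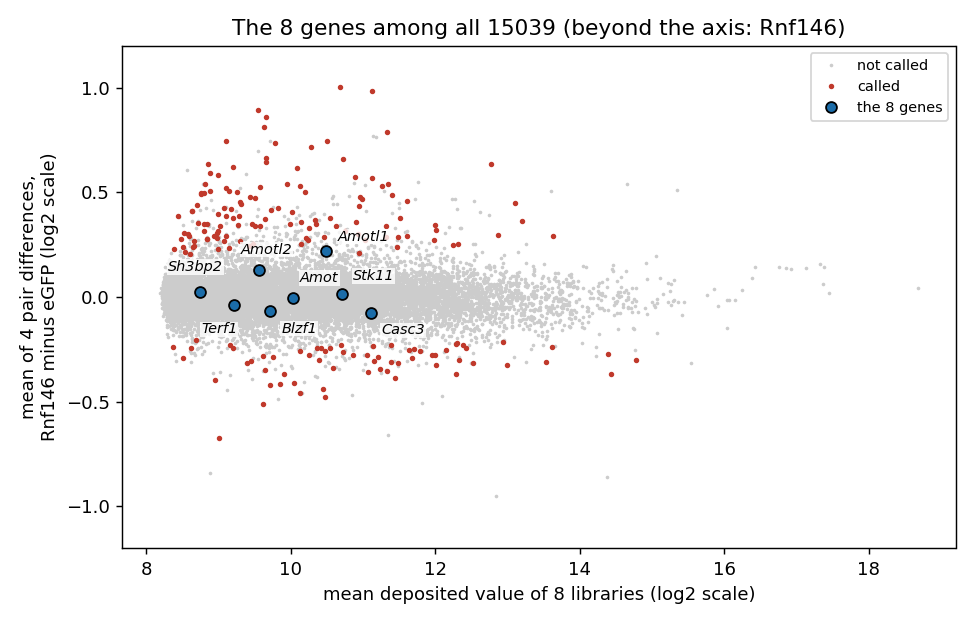
Mean difference between Rnf146 and eGFP libraries (y axis, log2 scale) against the mean deposited value (x axis, log2 scale) for all 15039 genes, with the 188 called genes in red and the 8 substrate genes in blue. *Amotl1* lies at 0.22, with uncalled genes both above and below it, and the other 7 lie between -0.07 and 0.13; *Rnf146* is beyond the axis.

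For the 7 genes other than *Amotl1*, the 95% intervals on the deposited scale reached no lower than -0.18 and no higher than 0.30. These limma intervals use variances drawn toward those of other genes. For *Amotl2* and *Sh3bp2*, with SDs of 0.21 and 0.20, the 4 differences alone would give wider intervals. The absolute differences of the 188 called genes had a median of 0.34 and began at 0.205, a size that the interval of *Amotl2* includes. The pair differences of *Sh3bp2*, from -0.21 to 0.29, reached that size too. Grouped by the tankyrase-binding stretch, the 3 genes with the strict form were at 0.02, -0.07 and -0.07, those with the wide form at -0.0039, 0.22 and 0.13, and the pair with neither at -0.04 and 0.01. No test was made between these groups of 3 genes or fewer.

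The proteins that work with each substrate were read from lists drawn up by function. Of 86 such genes other than *Rnf146*, 83 had values. Among the 83, limma called 0 with the block and 18 without it, beside 1.25% and 21.5% of all genes. An unadjusted p under 0.05 was found for 7 of the 83, beside 12.4% of all genes. These shares are the background for each list described next. Their median difference was -0.02, with 36 above 0 and 47 below.

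In the ligase and tankyrase axis, 0 of the 7 genes other than *Rnf146* were called and 0 had an unadjusted p under 0.05 by limma. Without the block, 1 of the 7 was called. *Parg*, the enzyme that removes poly(ADP-ribose), had the highest difference of 0.18 (SD 0.27, n = 4 pairs; adjusted p = 0.466 from limma). Its pair differences were 0.07, -0.02, 0.58 and 0.09, so the mean rested mostly on pair 3. *Axin1*, the classical substrate, had the lowest at -0.03 (SD 0.02, n = 4 pairs; adjusted p = 0.834 from limma). Among the Hippo partners of the angiomotins, 15 of 17 had values, and 0 were called and 0 had an unadjusted p under 0.05. Without the block, 2 of the 15 were called. *Tead1*, a DNA-binding partner of YAP, was the highest at 0.11 (adjusted p = 0.436 from limma) and *Ccn1*, a YAP target, the lowest at -0.09. *Yap1* itself was at 0.0039.

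All 12 signaling partners of *Sh3bp2* had values, and 0 were called by limma, with 2 at an unadjusted p under 0.05 and 4 called without the block. *Src*, a tyrosine kinase, had the lowest difference, -0.19 (adjusted p = 0.188 from limma), below 0 in all 4 pairs, and *Abl1* the highest, 0.13 (adjusted p = 0.381). The 9 Golgi partners of *Blzf1* ran from -0.09 for *Golgb1* to 0.08 for *Tmed10*, with 0 called, 0 at an unadjusted p under 0.05 and 1 called without the block.

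The 12 exon junction and decay partners of *Casc3* had 0 called, 2 at an unadjusted p under 0.05 and 2 called without the block. *Magohb*, a core subunit of the exon junction complex, was the highest of the 12 at 0.07. The 7 shelterin partners of *Terf1* ran from -0.08 for *Tinf2* to 0.03 for *Fbxo4*, with 0 called in either fit and 0 at an unadjusted p under 0.05.

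Of the 22 genes of the LKB1 complex and its downstream kinases, 21 had values. By limma with the block 0 were called, 3 had an unadjusted p under 0.05, and dropping the block gave 8 calls, beside 1.25%, 12.4% and 21.5% of all genes. Of the 21, 6 had a difference above 0 and 15 below, with a median of -0.05. *Sik2*, a salt-inducible kinase, was the lowest at -0.25 (SD 0.22, adjusted p = 0.241 from limma), and its relative *Sik3* the highest at 0.10 (adjusted p = 0.471).

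**Figure D5:**
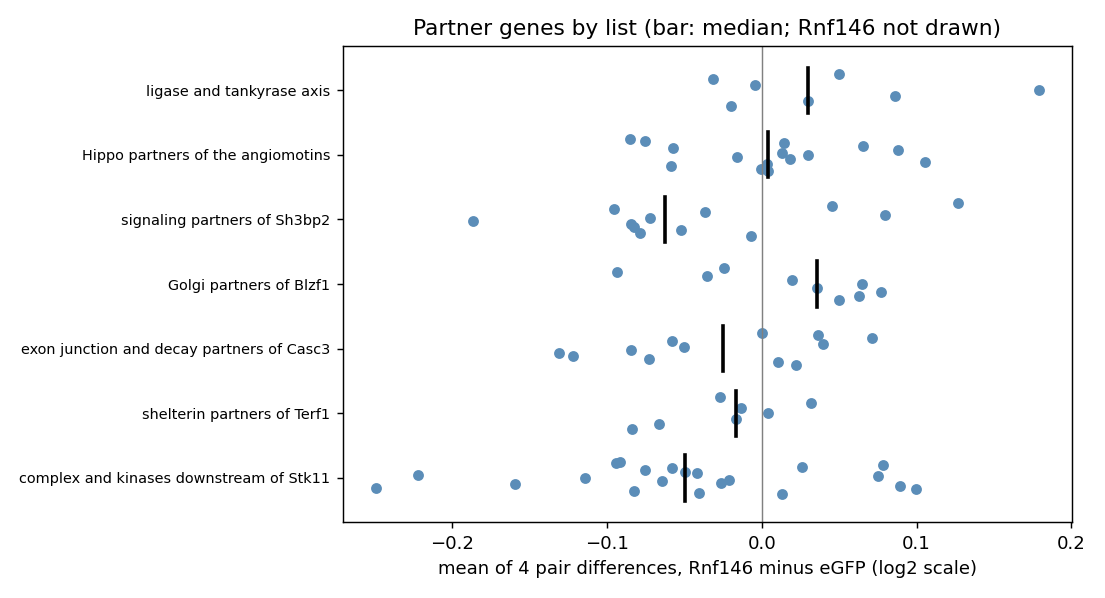
Mean difference between Rnf146 and eGFP libraries (x axis, log2 scale) of each partner gene (points), by list (rows), with the median of the list as a black bar and *Rnf146* not drawn. The points lie between -0.25 for *Sik2* and 0.18 for *Parg*, and no list median is further from 0 than the -0.06 of the partners of *Sh3bp2*.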

How the data were processed

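Libraries were made with a stranded mRNA kit. The authors used Cutadapt for trimming and Salmon 1.9.0 for quantification against GENCODE vM30 (GRCm39), and their processing notes name DESeq2. The deposited log2 values had been centred within same-numbered pairs (largest spread of the pair sums 1.4e-13), which fixes the pairing. The transformation and centring are not given in the sources used here, and no depth can be had from these values.

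The test was limma 3.58.1 (R 4.3.3; lmFit, then eBayes with a trend) on the whole table of 15039 genes, blocked on the replicate number. It was checked on simulated data. Coordinates and coding sequences came from GENCODE vM39 on GRCm39. Tables and figures used Python 3.11.15 with pandas 2.3.3. Named were all 8 substrates, *Rnf146*, the genes at both ends of each partner list, and overlapping genes; one gene at the end of a list is not reported here. *Yap1* was named after its value was seen. The substrates and lists were chosen with earlier results of these data known. Alternatives were no block, leaving out the lowest 25% of genes by mean value, library medians subtracted, quantile normalization, untrended or robust variances, an adjusted p of 0.05, marker lists as covariates and each pair left out.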

Additional observations from a re-analysis of the deposited data

How the results depend on the processing

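Of 103 differences of the 8 genes recomputed under the alternatives, 89 kept their direction and side of the threshold, 4 passed it and 10 changed sign. Dropping the block or the lowest genes, or altering the variances or the threshold, leaves a difference itself unchanged, so no sign could change there. All 10 sign changes came with a covariate or with a pair left out. Without the replicate block, where p-values come out too small, 3226 genes, 2 of the 8 substrates and 18 partner genes were called. At an adjusted p of 0.05, 80 genes were called. With the striatal and septal covariate 3 were called, and the differences of *Amotl2* and *Stk11* turned to -0.054 and -0.046. With the oligodendrocyte covariate, chosen after seeing the data, *Amot*, *Amotl2* and *Stk11* were at 0.086, -0.037 and -0.037. With a pair left out, the number of genes called ran from 14 without pair 4 to 421 without pair 1, with 42 without pair 2, and that of substrates from 0 to 2, the 2 without pair 1. *Sh3bp2* ran from -0.066 to 0.10, *Stk11* from -0.00050 to 0.046 and *Amot* from -0.035 to 0.038 over these. The causes were not tested. *Sh3bp2* has no value where the lowest 25% of genes is left out. The depth is unknown, and a compressed low end, which the values resemble but no source used here states, would limit what small differences show.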
